A study of Macaca mulatta with 25 samples.

Results

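The comparison described here is the main effect of maternal testosterone on the RNA of rhesus macaque blastocysts, taken across the 2 diets of a 2 by 2 design. Every library whose column was named T_ or T_WSD_ was set against every library named C_ or WSD_, with diet as an additive term. That gave 12 libraries with testosterone and 13 without, which together are all 25 libraries of the series. The females that gave the T group (10 libraries) carried testosterone implants and ate monkey chow of 15% fat, 59% carbohydrate and 26% protein. The TWSD group (2 libraries) came from females with the same implants on a Western-style diet, of 36% fat, 46% carbohydrate and 18% protein. The C group (5 libraries) came from females with control implants of cholesterol on chow, and the WSD group (8 libraries) from females without testosterone on the Western-style diet. Each group started with 10 females at about 2.5 years of age, just before puberty, and the implants kept circulating testosterone at up to 3 to 5 times normal. Ovarian stimulation followed after 5 to 6 years, in 7 T, 3 TWSD, 10 C and 6 WSD females, since health problems, endometriosis above all, kept the others out. The eggs were fertilised in vitro. Semen came from 4 males, the embryos were cultured for up to 8 days, and their outer coat, the zona pellucida, was taken off before the RNA was made. All females of all groups were stimulated with gonadotrophins, so no library came from a natural cycle. The labels used here do not tie a library to a mother, a father or a day of collection, and do not say that each library was 1 embryo. Since 10 T libraries came from at most 7 females and 8 WSD libraries from at most 6, some of them share a mother. The tests treat libraries as independent, so their p-values measure the spread between libraries and may be too small.

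Androgens are steroid hormones that change transcription, and in the ovary they act on the follicle in which the egg grows. The blastocyst is the stage at which an embryo consists of an outer trophectoderm, which builds the placenta, and an inner cell mass that holds epiblast and primitive endoderm. Its cells divide fast, and the trophectoderm makes signals that prepare attachment to the uterus. Since these eggs were fertilised in vitro, the implant acted on the mother and her growing eggs, and the embryos themselves grew in culture medium.

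Library totals ran between 14219054 and 26753850 counts with testosterone and between 15005205 and 35544542 without. Checked against the blastocyst label, trophectoderm markers summed to between 5060 and 15030 CPM (counts scaled to a common library total) in the 12 libraries with testosterone and between 3125 and 22760 CPM in the 13 without. Epiblast markers summed to between 1458 and 4126 CPM with testosterone and between 222.7 and 2617 CPM without. In bulk samples, fewer cells of a type and less RNA per cell cannot be told apart. Of 12 sperm and testis genes, the protamine PRM2 and the transition protein TNP2 had 0 counts in every library. The related PRM1 and TNP1 had 8 and 5 counts over all libraries. The 12 genes summed to between 28.3 and 115.6 CPM with testosterone and between 48.3 and 104 CPM without. Some libraries stood apart from their groups. The control libraries C 8, C 11 and C 12 and the testosterone library T 1 had 3025, 2400, 1073 and 1004 CPM of CGA, the hormone subunit made by syncytiotrophoblast, against at most 4.24 CPM elsewhere. The same 4 libraries lay at one end of the first principal component, which held 18.9% of the variance, and TWSD 2 lay at the other end.

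Across both diets, 73 of 13934 genes tested (0.524%) were higher and 210 (1.51%) were lower with testosterone at an adjusted p under 0.05, 283 (2.03%) in all. The 73 genes that rose had a median log2 difference of 0.93. Of these, 6 had no symbol in the table, and they had a median of 4.91, with 8.57 the highest value. Those with a symbol included DNA polymerase alpha, MCM helicase subunits, spindle proteins, an aminoacyl-tRNA synthetase and mitochondrial proteins. The 210 genes that fell moved further, with a median of -2.44, and included p53 targets, stress-response factors and signals of implantation. The median over all genes tested was -0.13, and it was -0.19 and -0.07 with the other scalings.

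The 2 sets were distributed unevenly over the libraries. Of the 210 genes that fell, C 12 was the highest of the 13 libraries without testosterone in 131, C 11 in 51 and C 8 in 26. TWSD 2 was the highest of the 12 libraries with testosterone in 67 of the 73 genes that rose, and the lowest in 103 of the 210 that fell. Without C 8, C 11 and C 12 the same test called 2 genes higher and 0 lower, with 945 and 421 genes at an unadjusted p under 0.05, and neither gene was among the 73. With no diet term 0 genes were called in either direction, with 304 higher and 864 lower at an unadjusted p under 0.05. Leaving out 1 library gave between 15 genes higher without T 4 and 272 without C 1, and between 56 genes lower without C 12 and 531 without C 1. Without TWSD 2 the counts were 22 higher and 238 lower, and without C 11 they were 23 and 115. Without T 1, 150 were higher and 524 lower. All 73 genes stayed above 0 in every setting tried. Of the 210, 199 stayed below 0 without C 8, C 11 and C 12, at a median of -0.85, and 149 without those 3 and TWSD 2, at a median of -0.36.

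**Figure D1:**
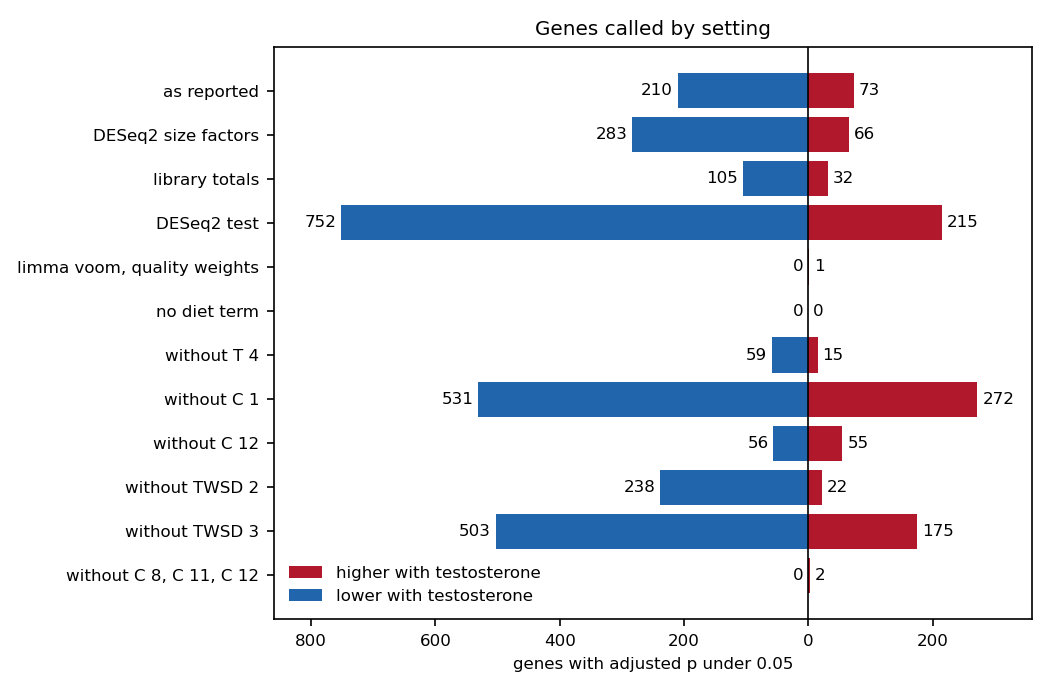
Number of genes called higher and lower with testosterone (horizontal axis, adjusted p under 0.05) under the 25-library fit and under other settings (vertical axis). The 25-library fit gives 73 and 210, and the fits with limma voom, with no diet term or without C 8, C 11 and C 12 together give between 0 and 2 in each direction.

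Genes that copy DNA and divide cells were the list with the most calls among the genes that rose. Of 39 cell cycle genes tested, 6 rose, 0 fell and 34 had a log2 difference above 0, at a median of 0.61, against 42.6% above 0 and a median of -0.13 over all genes. The summed level of the list ran from 8674 to 16900 CPM, with a median of 10480 CPM, in libraries with testosterone, and from 4418 to 12500 CPM, with a median of 9430 CPM, in those without. Within chow the 10 T libraries summed to between 8674 and 11410 CPM and the 5 C libraries to between 4418 and 8708 CPM. Within the Western-style diet the 2 TWSD libraries summed to 11400 and 16900 CPM and the 8 WSD libraries to between 9213 and 12500 CPM. The list's median was 0.71 on chow and 0.41 on the Western-style diet, and 0.36, with 33 of 39 above 0, without C 8, C 11 and C 12. For every list, the background over all genes was 0.524% called higher, 1.51% called lower and 42.6% above 0. Without C 8, C 11 and C 12, 48.7% of all genes were above 0, at a median of -0.02.

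POLA1, the catalytic subunit of DNA polymerase alpha that starts each new DNA strand, had the smallest p among the genes that rose. It had a lowest value of 53.1, a median of 101 and a highest value of 334 CPM in the 12 libraries with testosterone, against 14.4, 69.1 and 162 CPM in the 13 without. On chow the groups did not overlap, since the 10 T libraries lay between 53.1 and 155 CPM and the 5 C libraries between 14.4 and 46.8 CPM. On the Western-style diet TWSD 2 had 334 CPM, above the WSD range of 51.9 to 162 CPM, and TWSD 3 had 87.1 CPM, within it. The difference was 1.74 on the log2 scale (standard error 0.30, adjusted p = 0.00976), a 3.35-fold higher level after adjustment for diet. POLA1 kept its call whichever single library was left out, between 1.60 and 1.97, and had a log2 difference of 1.61 (adjusted p = 0.103) without C 8, C 11 and C 12. POLA1 lies on the human X chromosome. With a term for libraries with over 50 CPM of the Y-linked gene DDX3Y, its difference was 1.41 (adjusted p = 0.0163).

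CKAP5, a microtubule polymerase of the mitotic spindle, had a lowest value of 123, a median of 183 and a highest value of 323 CPM with testosterone, against 47.3, 157 and 237 CPM without. All 10 T libraries lay above all 5 C libraries, whose highest value was 109 CPM, while TWSD 2 had 323 and TWSD 3 had 216 CPM against 136 to 237 CPM in WSD. Its log2 difference was 0.89 (standard error 0.18, adjusted p = 0.0162), and it was called in each of the 25 fits that left out 1 library. ANAPC1, the largest subunit of the anaphase-promoting complex, ran from 64.6 to 362 CPM with testosterone and from 17.1 to 209 CPM without, a log2 difference of 1.42 (adjusted p = 0.0226). ZWILCH, part of the RZZ complex that keeps the spindle checkpoint active at kinetochores, ran from 85.1 to 167 CPM with testosterone and from 35.3 to 129 CPM without (log2 difference 0.82, adjusted p = 0.0228). Both passed in every fit that left out 1 library.

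MCM4 and MCM6 are subunits of the MCM helicase, which opens the DNA double helix ahead of the polymerase. MCM4 had a lowest value of 524, a median of 710 and a highest value of 917 CPM with testosterone, against 233, 490 and 882 CPM without. Within each diet its groups did not overlap: the T libraries began at 524 CPM and the C libraries ended at 490 CPM, and TWSD 2 and TWSD 3 had 917 and 890 CPM against at most 882 CPM in WSD. The difference was small, 0.62 on the log2 scale (standard error 0.16, adjusted p = 0.0424), and it passed in 10 of the 25 fits that left out 1 library, with 0.081 the highest adjusted p. MCM6 ran from 245 to 1356 CPM with testosterone and from 81.8 to 622 CPM without, with a log2 difference of 0.93 (adjusted p = 0.0331). Its highest value was TWSD 2, and it lost its call without C 11, T 4, T 7 or TWSD 2. CCNB1, the cyclin that drives entry into mitosis, was the remaining cell cycle gene called, at 0.93 (adjusted p = 0.0423), and was outside the rule by which genes were chosen for description.

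Of 32 DNA repair genes tested, BRCA1 and PRKDC rose and 0 fell, and 25 were above 0 at a median of 0.40. Without C 8, C 11 and C 12 the median was 0.19, with 23 of 32 above 0. The list's summed level was lowest in C 12 (2788 CPM) and C 11 (2967 CPM) and highest in TWSD 2 (9752 CPM). BRCA1, which is needed for repair of double-strand breaks by homologous recombination, had a lowest value of 51.1, a median of 68.9 and a highest value of 113 CPM with testosterone, against 15.2, 50.2 and 72.5 CPM without. All 12 libraries with testosterone lay above the median of the 13 without, and the log2 difference was 0.97 (standard error 0.23, adjusted p = 0.0334). PRKDC, the kinase of the end-joining pathway, differed by 0.76 (adjusted p = 0.0334). BRCA1 passed in 19 and PRKDC in 21 of the 25 fits that left out 1 library, BRCA1 being lost without C 11, C 12, T 4, T 5, T 7 or T 9 and PRKDC without T 4, T 5, T 7 or T 10.

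**Figure D2:**
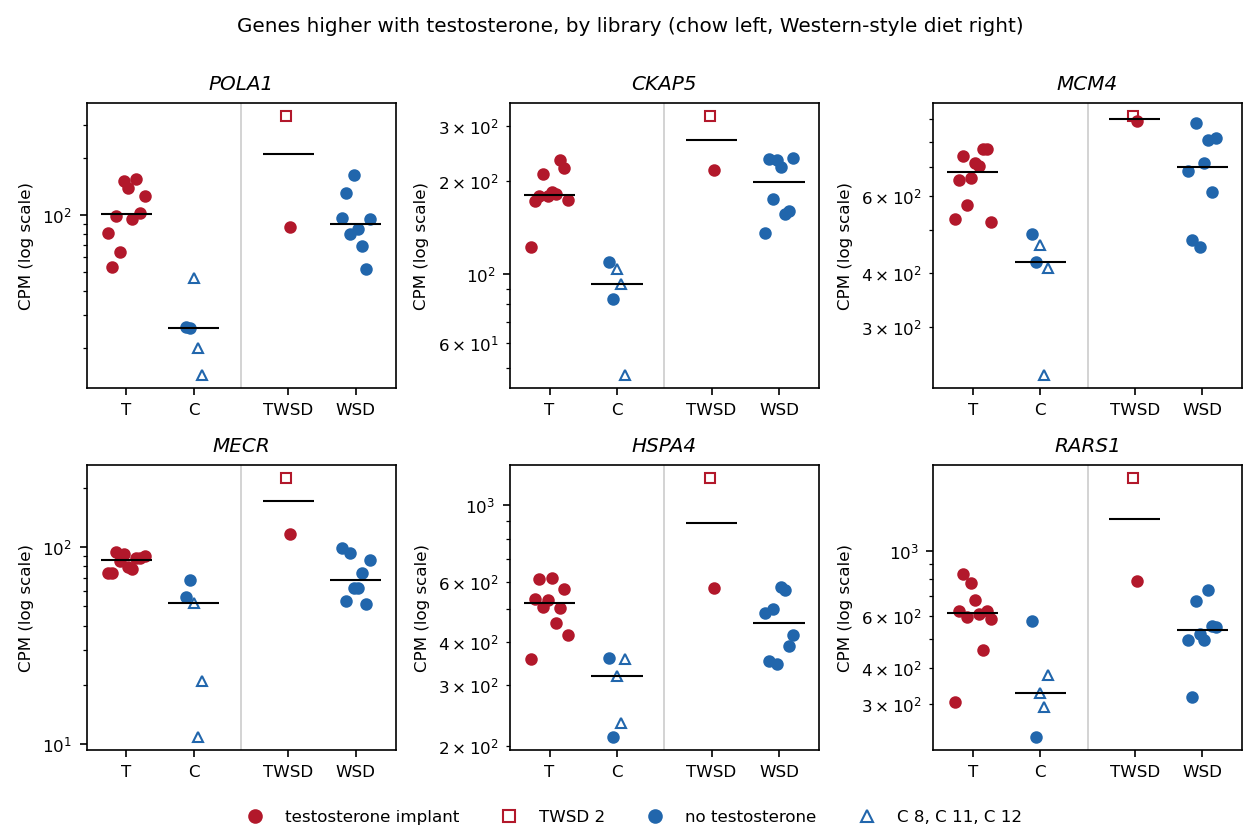
Level in CPM (log axis) of POLA1, CKAP5, MCM4, MECR, HSPA4 and RARS1 in each library, by group in the order T and C on chow, then TWSD and WSD on the Western-style diet. Points are libraries and black bars group medians, and TWSD 2 (open square) and C 8, C 11 and C 12 (open triangles) are marked. TWSD 2 is the highest of the 25 libraries in each of the 6 genes, and the C libraries of POLA1, CKAP5, MCM4 and MECR lie below all T libraries.

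The other genes that rose with the smallest p had mixed roles. HSPA4, an Hsp110 chaperone that works with Hsp70, had a lowest value of 357, a median of 533 and a highest value of 1202 CPM with testosterone, against 211, 360 and 580 CPM without. It differed by 0.84 (standard error 0.16, adjusted p = 0.0128), by 0.79 on chow and 0.96 on the Western-style diet, and by 0.91 without C 8, C 11 and C 12, and it passed whichever library was left out. RARS1, which charges the arginine tRNA, ran from 306 to 1765 CPM with testosterone and from 232 to 733 CPM without (log2 difference 0.91, adjusted p = 0.0224). DUS2, which reduces uridine to dihydrouridine in tRNAs, ran from 69.5 to 313 CPM with testosterone and from 24.9 to 125 CPM without (1.02, adjusted p = 0.0299). The highest value of both genes was in TWSD 2, and without that library their adjusted p was 0.0581 for RARS1 and 0.0973 for DUS2.

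MED14, the backbone subunit of the Mediator complex that links transcription factors to RNA polymerase II, lay between 25.3 and 90.4 CPM with testosterone and between 17.0 and 39.3 CPM without. All 12 libraries with testosterone were above the median of the others, 21.0 CPM. The log2 difference was 1.00 (standard error 0.21, adjusted p = 0.0224), 1.08 without C 8, C 11 and C 12, and the adjusted p was 0.0571 without TWSD 2. MED14 also lies on the human X chromosome, and its difference was 0.83 (adjusted p = 0.0348) with the DDX3Y term. RANBP2 and NUP93, components of the nuclear pore, rose by 0.80 (adjusted p = 0.0334) and 0.63 (adjusted p = 0.0488) among 26 nuclear pore and transport genes, of which 19 were above 0 at a median of 0.30. Without C 8, C 11 and C 12 that median was 0.40, with 25 of 26 above 0. Of 33 ribosomal protein genes 26 were above 0 at a median of 0.18, and RPL7, a protein of the large subunit, rose by 0.57 (adjusted p = 0.0424). RPL7 belongs to a family with many processed copies in primate genomes, so its count is uncertain. RANBP2 passed in 20, NUP93 in 7 and RPL7 in 9 of the 25 fits that left out 1 library, and all of them lost the call without TWSD 2, T 4, T 5 or T 7.

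MECR is the last enzyme of mitochondrial fatty acid synthesis, the pathway that feeds lipoic acid production. It had a lowest value of 74.2, a median of 88.0 and a highest value of 226 CPM with testosterone, against 10.8, 61.9 and 99.2 CPM without. The groups did not overlap within either diet: T libraries lay between 74.2 and 94.4 CPM and C libraries between 10.8 and 68.5 CPM, while TWSD 2 had 226 and TWSD 3 had 117 CPM against 51.7 to 99.2 CPM in WSD. The log2 difference was 1.09 (standard error 0.24, adjusted p = 0.0228), and the adjusted p was 0.0505 without TWSD 2. SDHD, which anchors succinate dehydrogenase in the inner membrane, was the 1 gene called among 23 of the TCA cycle, at 0.95 (adjusted p = 0.0471), and passed in 8 of 25 fits that left out 1 library. Of the 23, 19 were above 0 at a median of 0.46. Of 36 nuclear-encoded genes of the respiratory chain 0 were called and 32 were above 0, at a median of 0.40. Both medians were lower without C 8, C 11 and C 12, at 0.24 and 0.21.

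CTNNA1, the alpha-catenin that ties cadherins to actin, was called among 25 junction genes, at 0.88 (adjusted p = 0.0350). It ran from 255 to 1220 CPM with testosterone and from 177 to 709 CPM without, and passed in 17 of 25 fits that left out 1 library, being lost without C 11, C 12, T 4, T 7, T 8, T 9, T 10 or TWSD 2. DNAH3, an axonemal dynein heavy chain of motile cilia, was among the 10 genes with a symbol and the smallest p of those that rose. It ran from 5.71 to 58.6 CPM with testosterone and from 0.675 to 25.2 CPM without, a log2 difference of 2.31 (adjusted p = 0.0266) that passed in all 25 such fits.

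Among the genes that fell, CDKN1A had the smallest p of all genes tested. CDKN1A encodes p21, the inhibitor of cyclin-dependent kinases that p53 induces to stop the cell cycle. It had a lowest value of 0.387, a median of 27.9 and a highest value of 124 CPM in the 12 libraries with testosterone, against 11.6, 54.5 and 4135 CPM in the 13 without. The high values were in 3 control libraries: C 8 had 563, C 11 had 1436 and C 12 had 4135 CPM, while C 1 and C 2 had 54.5 and 85.4 CPM. TWSD 2 and TWSD 3 had 0.387 and 2.55 CPM, below all WSD libraries (11.6 to 121 CPM), and the 10 T libraries (8.38 to 124 CPM) overlapped C. The log2 difference was -4.61 (standard error 0.68, adjusted p = 0.00401), or 24.4-fold lower, and 8 of 12 libraries lay below the median of the 13. It passed in each fit that left out 1 library, between -4.86 and -3.76, and was -2.53 (adjusted p = 0.492) without C 8, C 11 and C 12.

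Of 28 genes of apoptosis and p53 targets, 9 were above 0, at a median of -0.38, against 42.6% and -0.13 over all genes. Against 0.524% and 1.51% of all genes, 0 of the 28 rose and 6 fell. Beside CDKN1A these were BBC3, which encodes the pro-apoptotic PUMA, AEN, a nuclease of apoptosis, MDM2, the ubiquitin ligase that degrades p53, GADD45A, a growth arrest factor, and BCL2L1, which protects from apoptosis. BBC3 had a lowest value of 3.29, a median of 8.04 and a highest value of 19.7 CPM with testosterone, against 4.87, 15.9 and 261 CPM without, and 10 of 12 libraries lay below the median of the 13. It differed by -2.24 (standard error 0.47, adjusted p = 0.0202), and its adjusted p was 0.105 without C 12, which held the 261 CPM. AEN differed by -1.96 (adjusted p = 0.0334), but 8 of the 12 libraries with testosterone lay above the median of the others and its value was -0.48 without C 12, which had 1317 CPM. BCL2L1 differed by -1.09 (adjusted p = 0.0422), MDM2 by -1.21 (adjusted p = 0.0422) and GADD45A by -1.99 (adjusted p = 0.0422). BCL2L1 passed in 11 of 25 fits that left out 1 library, and the list's summed level was between 1682 and 2624 CPM with testosterone and between 1296 and 10210 CPM without.

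The unfolded protein response is the programme by which a cell slows translation and raises chaperones when proteins misfold in the endoplasmic reticulum. Of its 28 genes 4 fell and 0 rose, and 4 were above 0, at a median of -0.87. The list median was -1.21 on chow and 0.43 on the Western-style diet, a difference that was not tested for the list. Its summed level was 26860 CPM in TWSD 2 and 9418 CPM in TWSD 3, the second within the WSD range of 7417 to 14770 CPM. The median was 0.35, with 17 of 28 above 0, without C 8, C 11 and C 12. ATF3, a transcription factor induced late in the response, had a lowest value of 0.193, a median of 3.26 and a highest value of 8.41 CPM with testosterone, against 0.246, 3.32 and 294 CPM without. The medians of both sides were alike and the high values were in C 12 (294 CPM), C 11 (121 CPM) and C 8 (26.0 CPM). Its log2 difference was -3.56 (standard error 0.69, adjusted p = 0.0137), and -0.53 without those 3. PPP1R15A, which restarts translation, ran from 3.80 to 48.7 CPM with testosterone and from 12.8 to 2109 CPM without (log2 difference -2.94, adjusted p = 0.0224), the 2109 CPM being in C 12, without which its adjusted p was 0.096. The co-chaperone DNAJB9 differed by -1.93 (adjusted p = 0.0334) and the stress-induced SESN2 by -1.56 (adjusted p = 0.0488), and they passed in 14 and 7 of the 25 fits that left out 1 library, both being lost without C 12. The list's summed level ran from 7772 to 26860 CPM with testosterone and from 7417 to 63430 CPM without.

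RELA encodes p65, the transcription factor that carries much of NF-kB signalling. It had a lowest value of 0.899, a median of 22.2 and a highest value of 36.3 CPM with testosterone, against 18.5, 31.8 and 226 CPM without. TWSD 2 had 2.45 and TWSD 3 had 0.899 CPM, below all 8 WSD libraries (18.5 to 38.4 CPM), and the T libraries (12.4 to 36.3 CPM) overlapped the C libraries (23.4 to 226 CPM). The log2 difference was -2.40 (standard error 0.42, adjusted p = 0.00976), with -1.79 on chow and -4.16 on the Western-style diet. It passed in each fit that left out 1 library, and was -2.36 (adjusted p = 0.175) without C 8, C 11 and C 12. RELA was the 1 gene called among 14 of inflammation and interferon, of which 3 were above 0 at a median of -0.74. JUNB, an AP-1 subunit induced by growth factors, was the 1 gene called among 17 immediate early and heat shock genes. Its lowest, median and highest values were 13.2, 45.3 and 74.2 CPM with testosterone, against 9.08, 37.9 and 1143 CPM without, so the middle of the libraries was not lower with testosterone. The log2 difference was -2.28 (adjusted p = 0.0128), and -0.34 without C 8, C 11 and C 12.

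Signals by which a blastocyst attaches to the uterus and draws in blood vessels were nearly all below 0. Of 22 tested, HBEGF, PTGS2, VEGFA and TGFB1 fell, 0 rose and 1 was above 0, at a median of -1.36, and of -1.34 on chow and -1.61 on the Western-style diet. Without C 8, C 11 and C 12 the median was -0.19 with 8 of 22 above 0. The summed level ran from 404 to 1825 CPM, with a median of 570 CPM, with testosterone and from 288 to 3263 CPM, with a median of 583 CPM, without. HBEGF, a ligand of the EGF receptor in attachment, had a lowest value of 0, a median of 0.926 and a highest value of 5.80 CPM with testosterone, against 0, 1.03 and 525 CPM without, and the 525 CPM were in C 12. The log2 difference was -5.97 (standard error 1.10, adjusted p = 0.0128), and its adjusted p was 0.122 without C 12. VEGFA, the main angiogenic factor, had a lowest value of 0.108, a median of 5.55 and a highest value of 159 CPM with testosterone, against 0.274, 9.67 and 1157 CPM without. It differed by -4.38 (standard error 1.00, adjusted p = 0.0299), 9 of 12 libraries lay below the median of the 13, and it lost its call without C 12, T 4 or T 7. PTGS2, the inducible prostaglandin synthase, differed by -6.09 (adjusted p = 0.0331) and TGFB1 by -3.92 (adjusted p = 0.0424). PTGS2 lost its call without C 12, T 4, T 5, T 7 or T 9, and TGFB1 passed in 9 of 25 such fits.

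**Figure D3:**
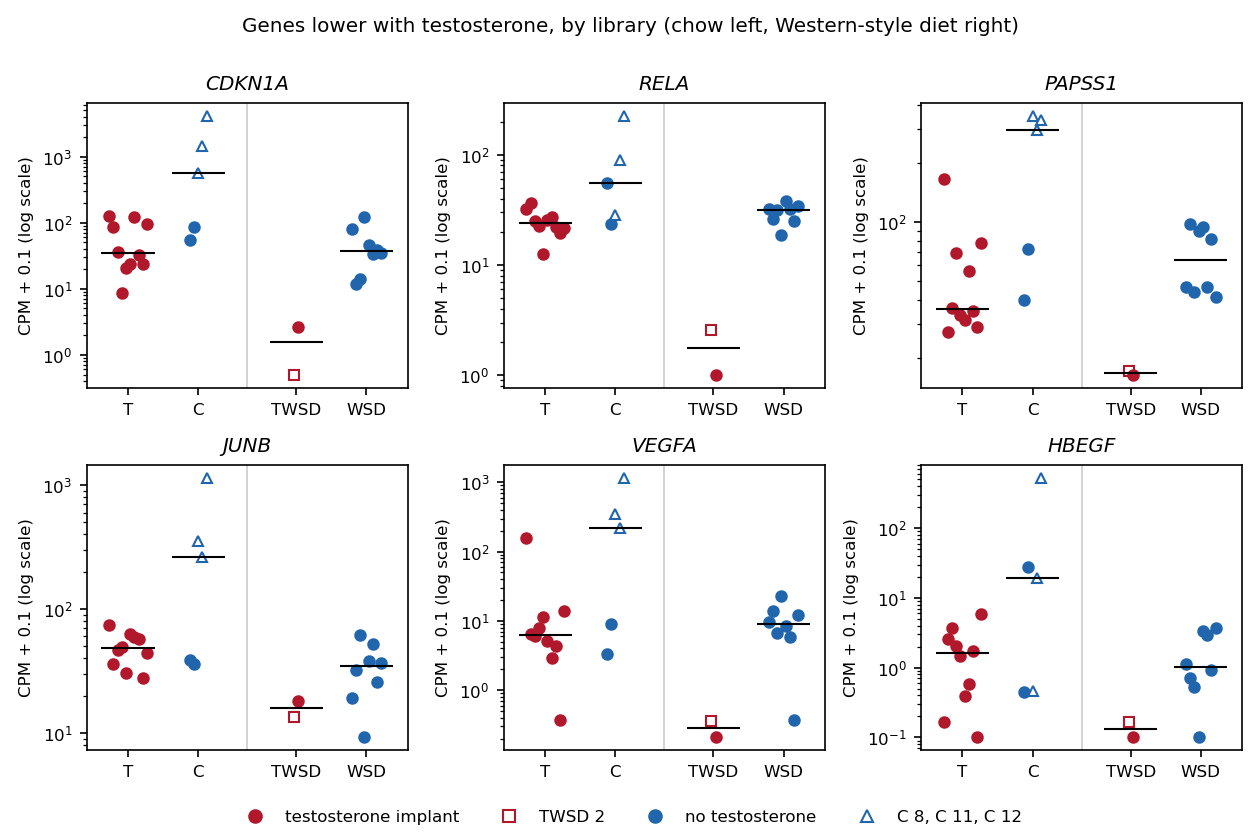
Level (CPM + 0.1, log axis) of CDKN1A, RELA, PAPSS1, JUNB, VEGFA and HBEGF in each library, by group in the order T and C on chow, then TWSD and WSD on the Western-style diet. Points are libraries and black bars group medians. The open triangles of C 8, C 11 and C 12 hold high values, such as 563, 1436 and 4135 CPM of CDKN1A, and both TWSD libraries of CDKN1A, RELA and PAPSS1 lie below all WSD libraries.

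Hippo signalling couples cell position to trophectoderm fate through TEAD transcription factors. Of 17 genes 3 fell and 0 rose, and 4 were above 0, at a median of -0.80, or -0.07 without C 8, C 11 and C 12. TEAD1 had a lowest value of 0.129, a median of 19.9 and a highest value of 32.5 CPM with testosterone, against 19.5, 31.1 and 286 CPM without, and 11 of 12 libraries lay below the median of the 13. It differed by -1.76 (standard error 0.46, adjusted p = 0.0424), by -1.05 without C 8, C 11 and C 12, and passed in 10 of 25 fits that left out 1 library. The matricellular targets CCN1 and CCN2 differed by -3.62 (adjusted p = 0.0300) and -2.66 (adjusted p = 0.0350). C 12 held 2835 CPM of CCN1 and 1010 CPM of CCN2, and without it the differences were -0.95 and -1.06.

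Several further groups had a few calls each, all in the lower direction. Of 25 autophagy and lysosome genes GABARAP, SQSTM1 and ULK1 fell, at a list median of -0.30. ULK1, the kinase that starts autophagy, had a lowest value of 0.258, a median of 21.2 and a highest value of 60.9 CPM with testosterone, against 21.7, 45.9 and 263 CPM without. It was lower than the median of the 13 in 11 of 12 libraries, with a log2 difference of -1.85 (adjusted p = 0.0334) that was lost without C 12, T 4, T 5, T 6, T 7, T 9 or T 10. GABARAP, which joins autophagosome membranes, differed by -1.24 (adjusted p = 0.0299), and was lost without C 12, T 4 or T 7. The cargo receptor SQSTM1 differed by -1.60 (adjusted p = 0.0465), passed in 6 of 25 fits that left out 1 library and had a value of 0.26 without C 8, C 11 and C 12. Of 16 hypoxia targets VEGFA and the mitophagy receptor BNIP3L (-1.26, adjusted p = 0.0373, 15 of 25 such fits) fell, at a median of -0.39. Of 22 insulin and IGF genes the insulin receptor substrate IRS2 fell (-5.55, adjusted p = 0.0300), and C 12 held 255 CPM of it against at most 6.84 CPM with testosterone. IRS2 lost its call without C 12, T 5 or T 7.

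The remaining genes among the 10 with the smallest p that fell had mixed roles. PAPSS1 makes the sulfate donor used to sulfate steroids, among other substrates. It had a lowest value of 16.3, a median of 34.1 and a highest value of 166 CPM with testosterone, against 39.9, 81.6 and 351 CPM without. TWSD 2 and TWSD 3 had 17.1 and 16.3 CPM, below all WSD libraries (41.2 to 97.3 CPM), and 11 of 12 libraries lay below the median of the 13. The log2 difference was -1.98 (standard error 0.37, adjusted p = 0.0128), of the same size on chow (-1.96) and on the Western-style diet (-2.01), and -0.99 without C 8, C 11 and C 12. SIRT7, a nuclear deacylase of ribosomal DNA, had a median of 45.1 CPM with testosterone against 58.4 CPM without (log2 difference -1.72, adjusted p = 0.0128). The protein kinase TESK2 had medians of 7.80 and 14.4 CPM (-2.57, adjusted p = 0.00976) and the actin-linked PDLIM2 of 38.3 and 54.9 CPM (-2.78, adjusted p = 0.0128) with and without testosterone. PAPSS1, SIRT7, TESK2 and PDLIM2 passed in each fit that left out 1 library, SIRT7 with -0.98 as its smallest difference. PDLIM2 was at -0.60, SIRT7 at -0.64 and TESK2 at -1.83 without C 8, C 11 and C 12, and none of these passed.

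CAPN6, GPSM1 and APOB were at or near 0 in every library with testosterone. CAPN6, a calpain found in placenta, had at most 0.393 CPM there and up to 423 CPM in C 11 (log2 difference -9.40, adjusted p = 0.00976). GPSM1, a modulator of G proteins, had at most 0.176 CPM there and up to 34.0 CPM without testosterone (-7.96, adjusted p = 0.00976). Both had medians under 1 CPM without testosterone as well, 0.418 CPM for CAPN6 and 0.512 CPM for GPSM1. APOB, the structural protein of low-density lipoprotein, had at most 3.30 CPM with testosterone and 1344 CPM in C 11, and its difference of -7.75 (adjusted p = 0.0128) had an adjusted p of 0.265 without that library.

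**Figure D4:**
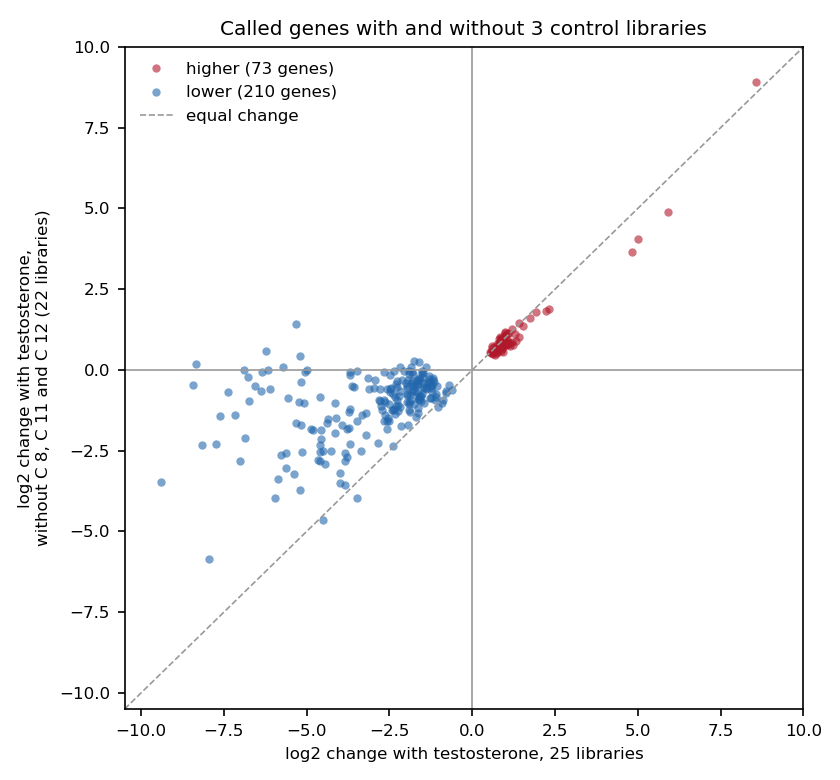
Log2 difference of each gene called in the 25-library fit (horizontal axis) against the same difference without C 8, C 11 and C 12 (vertical axis), with genes that rose and genes that fell in 2 colours. The 73 that rose all stay above 0, at a median of 0.81 against 0.93, while the median of the 210 that fell is -0.85 against -2.44.

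A gene's libraries could also be compared without a model. In 0 of 13934 genes (0%) did all 12 libraries with testosterone lie on one side of all 13 without. Asking only that the groups not overlap within chow and, separately, within the Western-style diet left 3 higher genes (0.0215%) and 1 lower gene (0.00718%). The higher ones were MCM4, MECR and ATAD5. ATAD5, which unloads the replication clamp PCNA from DNA, lay between 36.0 and 86.3 CPM in T, against 5.80 to 34.7 CPM in C. It had 73.3 and 86.0 CPM in TWSD 2 and TWSD 3, against 37.3 to 70.4 CPM in WSD. Its log2 difference of 0.93 did not pass (adjusted p = 0.0557), though it did without C 1 (adjusted p = 0.0402) or T 1 (adjusted p = 0.0364). TUSC1, a putative tumour suppressor, was the lower gene, with 1.05 to 4.37 CPM in T against 4.68 to 19.3 CPM in C. TWSD 2 and TWSD 3 had 0.129 and 1.11 CPM of it against 1.39 to 8.87 CPM in WSD, and its log2 difference was -1.83 (adjusted p = 0.0633), passing without C 1 (adjusted p = 0.0432), C 2 (adjusted p = 0.0414) or T 1 (adjusted p = 0.0492). Within the Western-style diet alone, where 2 libraries stood against 8, 472 genes (3.39%) were higher and 589 (4.23%) lower without overlap, and within chow alone 25 (0.179%) and 14 (0.1%).

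The diet-adjusted effect is a weighted mean of a testosterone effect on chow and one on the Western-style diet. On chow, T against C called 47 genes higher (0.337%) and 526 lower (3.77%). On the Western-style diet, TWSD against WSD called 3 higher (0.0215%) and 4 lower (0.0287%), with 1891 genes at an unadjusted p under 0.05. The chow count was 64 without C 12 and 1249 without C 1, and 1 without C 8, C 11 and C 12. The Western-style count was 0 without TWSD 2 and 2570 without TWSD 3, where the lone TWSD library is assumed to vary like the other groups. The 73 genes that rose had medians of 0.86 on chow and 1.04 on the Western-style diet, with all 73 above 0 in both, and the 210 that fell had medians of -2.84 and -1.77, with 207 below 0 on the Western-style diet. Those signs follow in part from choosing the genes on both diets together. When the 15 chow libraries were fitted on their own, 108 genes (0.775%) fell, and 70 of these (64.8%) were below 0 in a separate fit of the 10 libraries of the Western-style diet, against 56.2% of all genes. Of 6 (0.0431%) that rose on chow alone, 5 (83.3%) were above 0 on the Western-style diet, against 43.8% of all genes. Over all genes, the 2 separate effects had a Pearson correlation of 0.154, given as a description because genes are not independent.

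The higher genes of the Western-style diet were STAMBP, an endosomal deubiquitinase, at 1.87 (adjusted p = 0.0190), CCSAP, a centriole and spindle protein, at 2.47 (adjusted p = 0.0197), and EXOSC8, a subunit of the RNA exosome, at 1.88 (adjusted p = 0.0416). In that order they had 446, 116 and 901 CPM in TWSD 2, but 97.2, 23.9 and 174 CPM in TWSD 3. The highest WSD values were 90.2, 15.6 and 173 CPM. The genes called lower were RELA, at -4.16 (adjusted p = 0.0203), and MOSPD2, ZNF300 and TCEANC, which had 0 counts in both TWSD libraries. With a floor of 3 counts over the group, MOSPD2, a membrane contact protein, was at least 151-fold lower in TWSD than the WSD mean of 10.4 CPM. ZNF300, a zinc finger gene, was at least 163-fold lower than a WSD mean of 11.3 CPM, and TCEANC, a gene related to elongation factor TFIIS, at least 65.7-fold lower than 4.55 CPM. In T and C libraries these 3 genes overlapped, MOSPD2 for example with 5.11 to 20.9 CPM in T and 6.45 to 21.5 CPM in C.

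The test of the difference between diets called 10 genes (0.0718%), 6 with a more positive testosterone effect on the Western-style diet (0.0431%) and 4 with a more negative one (0.0287%). The 5 with the smallest p were MOSPD2 (-10.72, adjusted p = 0.00287), ZNF300 (-10.52, adjusted p = 0.0237), SEPTIN4 (11.95, adjusted p = 0.0237), TCEANC (-9.49, adjusted p = 0.0340) and DDIT3 (7.20, adjusted p = 0.0340). DDIT3 encodes CHOP, a pro-apoptotic factor of the unfolded protein response. It had 41.2 and 24.9 CPM in TWSD 2 and TWSD 3, against 9.68 to 27.7 CPM in WSD. On chow it had 10.1 to 67.3 CPM in T, against 11.04, 21.9, 268, 302 and 8642 CPM in C 1, C 2, C 8, C 11 and C 12. The high DDIT3 values were thus those of the same 3 control libraries, without which its both-diet difference was 0.92 in place of -3.39 (adjusted p = 0.117 with all libraries). SEPTIN4, a septin linked to apoptosis, had 21.5 CPM in TWSD 2 and 0.0360 CPM in TWSD 3 against at most 1.15 CPM in WSD. It had at most 1.16 CPM in T and 197 CPM in C 12. The number called for the difference between diets was 0 without TWSD 2, 2235 without TWSD 3 and 2 without C 8, C 11 and C 12.

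Steroid receptors and the enzymes that make or convert steroids were measured as a panel whatever their values, because the treatment is a steroid. The progesterone receptor PGR did not reach the level needed for testing. Of 17 receptor and enzyme genes tested 0 rose and 0 fell, and their median was -0.07, with 6 above 0. Some genes outside this list that also encode steroid-converting enzymes were called lower, and were picked out after the calls were known. They were HSD17B2 (-5.87, adjusted p = 0.0137), CYP1B1 (-3.84, adjusted p = 0.0360) and CYP3A7 (-3.73, adjusted p = 0.0423). Without the control libraries that stood apart, their differences were -3.37, -3.55 and -1.81 in that order, and none passed. CYP11A1, which makes pregnenolone from cholesterol, had a lowest value of 170, a median of 301 and a highest value of 810 CPM with testosterone, against 29.7, 258 and 2618 CPM without. Its log2 difference of -0.66 did not pass (adjusted p = 0.386). The nearest to the threshold in this panel was HSD17B1, which activates estrone to estradiol, at -1.52 (adjusted p = 0.0891, or 0.0175 without C 1 and 0.0409 without TWSD 3), with 5.41 to 141 CPM with testosterone and 4.76 to 641 CPM without.

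CYP19A1, the aromatase that turns testosterone into estradiol, had at most 78.2 CPM with testosterone, in T 1, and at most 376 CPM without, in C 12, while most libraries were near 0. Its difference of -3.71 (adjusted p = 0.231) was 0.01 without C 12 and -7.02 (adjusted p = 0.0136) without T 1. FKBP5, a chaperone that steroid receptors induce, ran from 24.6 to 172 CPM with testosterone and from 2.87 to 116 CPM without, with a log2 difference of 0.24 (adjusted p = 0.792). STAR, which brings cholesterol into mitochondria, differed by -0.07 (adjusted p = 0.904) and the reductase SRD5A3 by -0.02 (adjusted p = 0.982). SRD5A1, which makes dihydrotestosterone, differed by -0.31 (adjusted p = 0.827) and HSD3B1, which makes progesterone, by -2.18 (adjusted p = 0.457). The receptors ESR1, ESR2, NR3C1 and NR3C2 had medians of 0.726, 0.0580, 1.60 and 0.728 CPM with testosterone, against 0.411, 0, 1.47 and 0.597 CPM without, and 0 of them passed.

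Of 24 genes known as androgen-responsive in other tissues, 0 rose and 2 fell, and the median was -0.38 with 8 above 0. Without C 8, C 11 and C 12 it was 0.11 with 14 above 0. Over all genes, 1.51% were called lower and 42.6% were above 0, or 48.7% without those 3 libraries. The 2 that fell were TSC22D3, a glucocorticoid-induced leucine zipper gene, at -3.68 (adjusted p = 0.0371), and APPBP2, which binds the amyloid precursor protein, at -1.87 (adjusted p = 0.0327). TSC22D3 had a median of 3.09 CPM with testosterone and 3.23 CPM without, and C 11 alone had 195 CPM. Without C 11 its difference was -1.27 (adjusted p = 0.651). APPBP2 had medians of 13.1 CPM with testosterone and 14.7 CPM without, and lost its call without C 12, T 4 or T 7.

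Markers of cell types were compared between the same libraries, and their part in the differences above was not tested. Of 12 trophectoderm markers TFAP2A, a transcription factor of the trophoblast, fell at -2.37 (adjusted p = 0.0424), and 4 were above 0 at a median of -0.40. TFAP2A had 306 CPM in T 1, against 1147, 521 and 1161 CPM in C 8, C 11 and C 12, and passed in 8 of 25 fits that left out 1 library. Of 12 syncytiotrophoblast markers 0 were called and 1 was above 0, at a median of -2.27. Their summed level ran from 234 to 5299 CPM with testosterone and from 234 to 15440 CPM without, and the median was 0.02 without C 8, C 11 and C 12. Of 15 epiblast markers 14 were above 0 at a median of 0.66, which was 0.87 on chow, -0.11 on the Western-style diet and 0.12 without those 3 libraries. Of 13 transcripts stored in the oocyte 12 were above 0 at a median of 1.60, with summed levels from 901 to 1880 CPM with testosterone and from 71.6 to 1708 CPM without, and the median was 0.44 without those 3. Of 9 genes of embryonic genome activation 7 were above 0 at a median of 1.12. Of 13 primitive endoderm markers 3 were above 0 at a median of -0.56, and of 7 cumulus and granulosa markers 0 were above 0 at a median of -1.75, or 0.02 without those 3. In all of these lists but trophectoderm 0 genes were called. The 2 sperm and testis and 4 blood and immune genes tested had no call either, and blood and immune markers summed to at most 32.1 CPM with testosterone and 244 CPM without.

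The level of Y-linked RNA varied widely between libraries. DDX3Y, a gene on the Y chromosome, was over 50 CPM in 5 of 12 libraries with testosterone (4 of 10 T and 1 of 2 TWSD), against 9 of 13 without (4 of 5 C and 5 of 8 WSD). The 8 Y-linked genes tested gave 0 calls. The 2 shares were not tested against each other. The threshold was set after the values were seen, and lay between 13.4 and 106 CPM, where no library fell. Of the 67 genes with a symbol that rose, 9 lie on the human X chromosome, POLA1 and MED14 among them, which was looked up after the calls were known. With a term for DDX3Y in the fit their median log2 difference was 0.83 in place of 1.08, and POLA1 (1.41, adjusted p = 0.0163) and MED14 (0.83, adjusted p = 0.0348) were the 2 still called. The other 58 had a median of 0.92 with the term and 0.89 without it, and 36 of them were still called. Among the genes that fell, 8 were looked up as X-linked, with a median of -3.38 with the term and -3.58 without it. Of these, 7 were still called. TSC22D3, which fell and also lies on the human X chromosome, was not among the 8, so that set is incomplete. Of the 9 that rose, all but RPGR (20.9 and 20.5 CPM) had lower medians in libraries with DDX3Y over 50 CPM than in the others. POLA1 had 66.5 and 132 CPM, and MED14 had 21 and 39.1 CPM. These medians pool libraries with and without testosterone, and the part of embryo sex was not tested. The share of X-linked genes among all genes tested was not counted. In all, 58 genes rose and 240 fell with the term, of which 41 and 168 were among the 73 and 210.

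The lists of energy and lipid metabolism outside the TCA cycle gave 0 calls in either direction, although single genes outside the lists, such as MECR and APOB, were called. The list medians were 0.07 for 21 glycolysis genes, 0.12 for 19 of fatty acid oxidation, -0.02 for 21 of lipid storage and synthesis, and 0.07 for 24 of oxidative stress defence. Of 19 genes of cholesterol synthesis and uptake 3 were above 0, at a median of -0.38, and their summed level ran from 3090 to 7877 CPM with testosterone and from 1186 to 12970 CPM without. Among 24 chromatin and DNA methylation genes the median was 0.12, and among 8 imprinted genes it was -0.40 with all libraries and 0.33 without C 8, C 11 and C 12, again with 0 calls.

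**Figure D5:**
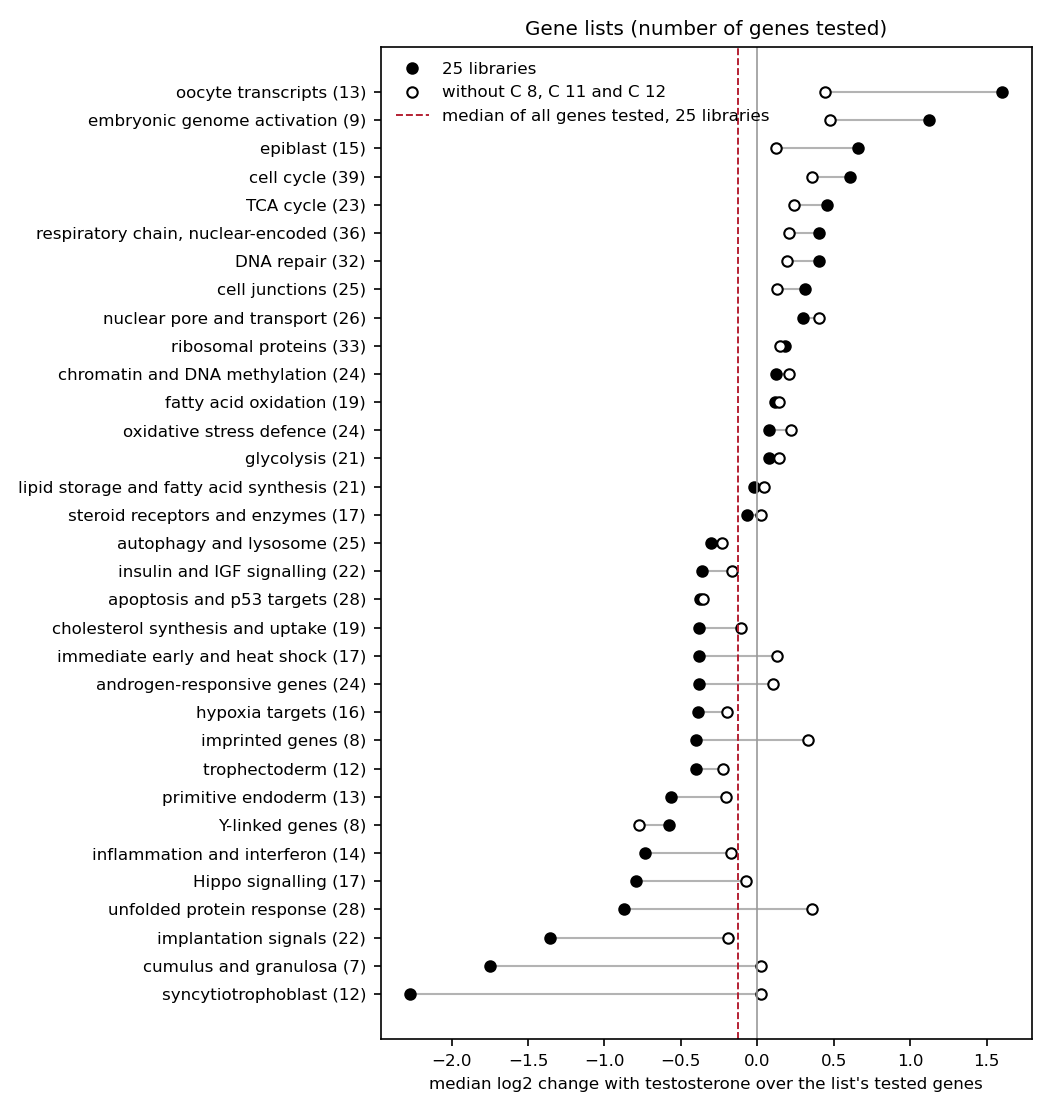
Median log2 difference with testosterone of each gene list (horizontal axis) with all 25 libraries (filled) and without C 8, C 11 and C 12 (open), with the median of all genes as a dashed line. Cell cycle is at 0.61 filled and 0.36 open, while implantation signals are at -1.36 and -0.19 and the unfolded protein response at -0.87 and 0.35.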

How the data were processed

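Blastocyst RNA of 25 libraries was sequenced. The authors deposited raw counts per gene, as whole numbers with no normalization, in 1 table of 35395 genes. Per the submitters' processing notes, reads were handled with FastQC 0.11.8, Trimmomatic 0.39 and STAR 2.7.0 on Mmul_10; the counter, the annotation and the use of strand were not given in the sources used here, so overlapping genes may share reads. Columns were matched to samples by title. No pair of libraries was a duplicate (a chi-square per gene of at least 71.7 over 300 pairs).

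The main test was edgeR's quasi-likelihood F-test (edgeR 4.0.16, R 4.3.3, robust, TMM scaling) with testosterone and diet as additive terms, on 13934 genes, those that reached 1 CPM in 5 or more libraries. P-values were adjusted by Benjamini-Hochberg over all of these, with a threshold of 0.05. A 4-group fit gave the effects within each diet and their difference. Fold changes come from the diet-adjusted fit, while CPM values are unadjusted. The fit was also run on simulated counts of independent libraries, with less spread than these and none set apart. That run cannot show how the tests behave on these libraries. Alternatives used DESeq2 1.42.0, limma 3.58.1, other scalings and filters, and libraries left out. Genes described are the 10 with a symbol and the smallest p in each direction, up to 4 called members per gene list and direction, up to 5 per direction whose groups do not overlap within either diet, the 5 top genes of the interaction and a steroid panel, 70 in all, of which 51 were called; some members are not reported here. The comparison, lists and rule were chosen with earlier results of these data known. For genes with many counts, counting error is small beside the spread between libraries (biological coefficient of variation 0.918). GPSM1 and CAPN6 had 7 and 17 counts over all libraries with testosterone, so the size of their differences also depends on counting error.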

Additional observations from a re-analysis of the deposited data

Results flagged for a closer look

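In groups of 4 to 10 libraries, 1 library stood far from the rest of its group in 18 of 216 groups checked over the 70 described genes, where chance gives about 5%. The values are log2 CPM with a prior count of 2. In T, CKAP5 was 6.94 in T 1, GPSM1 -1.90 in T 9, PPP1R15A 2.94 in T 10, MCM6 7.93 in T 11 and CYP19A1 6.29 in T 1. In C, TSC22D3 was 7.61 and MCM4 7.86 in C 11, NR3C2 was -0.41 in C 8, and in C 12 BBC3 was 8.03, TEAD1 8.16, NUP93 6.26 and ATAD5 2.56. In WSD, RARS1 was 8.32 in WSD 3, DNAH3 0.19 in WSD 7, BRCA1 4.67 in WSD 6, VEGFA -1.45 in WSD 9, CYP11A1 4.90 in WSD 10 and ESR2 1.30 in WSD 1.

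The testosterone effect differed between the Western-style diet and chow, by the test of the difference itself (edgeR), in MOSPD2 (-10.72 on the log2 scale), ZNF300 (-10.52), SEPTIN4 (11.95), TCEANC (-9.49) and DDIT3 (7.20). The 3 negative values rest on 2 TWSD libraries with 0 counts, and SEPTIN4 and DDIT3 had their highest level of all libraries in C 12.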

How the results depend on the processing

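Counts of genes higher and lower with testosterone were 73 and 210. They were 32 and 105 with library totals, 215 and 752 with DESeq2's Wald test, 1 and 0 with limma voom, 26 and 20 for the mean of the within-diet effects, and 0 and 0 with no diet term. Lower calls were 340 with no filter and 333 with a filter of 2 libraries. They were 2 and 0 without C 8, C 11 and C 12, 0 and 0 without T 1 or TWSD 2 as well, and 2 and 22 without C 12 and TWSD 2. Leaving out 1 library gave 15 to 272 higher and 56 to 531 lower. The 573 chow calls were 114 in the chow libraries alone and 1 without the 3 controls (64 to 1249 with 1 left out). The 7 Western-style calls were 1 in those libraries alone (0 to 2570). The 10 interaction calls were 400 with DESeq2 and 2 without the 3 controls (0 to 2235). The cause of these changes was not tested.

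Same-numbered libraries were not treated as paired, and the labels do not say what the numbers share. Over 13 pairs the correlation of their deviations ran from -0.38 to 0.22, with 3 pairs over 0.1. Of 23 libraries, 1 correlated best with its own number. These values cannot show that there was no pairing. A fit with a term for replicate number, the replicate block, gave 0 calls higher and 0 lower, with 688 and 997 at an unadjusted p under 0.05.

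Of the 70 described genes these changed sign. SRD5A3 was 0.00631 with library totals, 0.14 with voom, 0.00199 unfiltered, 0.0775 with no diet term and 0.11 with the DDX3Y term, with which NR3C1 was -0.0221. CYP11A1 was 0.16 with voom, 0.28 with the block, 0.50 without the 3 controls, 0.43 without T 1 too and 0.67 without TWSD 2 too. SRD5A1 was 0.0589 with voom. ESR2 was 1.26 with no diet term, 1.44 with the block and 0.54 without C 12 and TWSD 2. STAR was 0.13 for the mean of the diets, 0.0432 with the block, 0.0229 without the 3 controls and 0.0362 without T 1 too. Without the 3 controls, with T 1 and with TWSD 2 also left out, SQSTM1 was 0.26, 0.15 and 0.37 and DDIT3 0.92, 0.79 and 0.74. SEPTIN4 was 1.73 without the 3 controls and 1.46 without T 1 too. CYP19A1 was 0.83 without the 3 controls, 5.84 without TWSD 2 too and 0.68 without C 12 and TWSD 2, where FKBP5 was -0.26. Without the 3 controls and TWSD 2, TFAP2A was 0.36, ATF3 0.31, PPP1R15A 0.14, IRS2 2.07, VEGFA 0.74, JUNB 0.00710, PTGS2 4.39, TGFB1 0.18, CCN1 0.52, CCN2 0.29, HSD3B1 1.45 and FKBP5 -0.15. With 1 library left out, SRD5A3 ran from -0.20 to 0.17, ESR2 from -0.78 to 0.33, STAR from -0.41 to 0.0826, CYP19A1 from -7.02 to 0.0139, NR3C1 from -0.42 to 0.93 and FKBP5 from -0.0664 to 0.53. Settings that leave out TWSD 2 with controls, and the DDX3Y term, were chosen after seeing the data. With 2 TWSD libraries, small changes on the Western-style diet were not detectable.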

Other observations

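Among the called genes outside the lists, some shared a known role, which was read off after their values were seen and not tested. JUNB, ATF3 and BNIP3L, which are named with them here, belong to lists described above. Genes of ribosome assembly (LAS1L, EFL1, NSA2, NVL, TSR2 and WDR12) rose with a median log2 difference of 0.98, and 0.94 without C 8, C 11 and C 12. TWSD 2 was the highest library in each of these genes, and TWSD 3 lay within the WSD range in each. LAS1L, for example, had 769 CPM in TWSD 2 and 158 CPM in TWSD 3. Besides MECR, further genes for mitochondrial proteins rose, among them LRPPRC, which stabilises mitochondrial mRNAs, by 0.90, and LIAS, which makes lipoic acid, by 1.24. Other genes for mitochondrial proteins were called lower, namely the carriers SLC25A42 (-3.48) and SLC25A25 (-3.69) and the receptor BNIP3L (-1.26). The deadenylase subunits CNOT1 and CNOT8 rose by 0.91 and 0.61, the exosome nuclease DIS3 by 0.85, and the stress granule proteins G3BP1 and G3BP2 by 0.67 and 0.59. Without C 8, C 11 and C 12, those 5 lay between 0.67 and 0.75. TWSD 2 was the highest library in CNOT8, DIS3, G3BP1 and G3BP2, and also in LRPPRC and LIAS, while T 8 was the highest in CNOT1.

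Some genes for proteins that liver and yolk sac secrete into blood were called lower with testosterone: APOB, the fibrinogen chains FGB and FGG, plasminogen (PLG), prothrombin (F2), transthyretin (TTR) and RBP4, which carries retinol. Their log2 differences lay between -8.42 and -3.70, and C 11 was the highest library without testosterone in all 7. FGB had at most 6.49 CPM with testosterone, against 4727 CPM in C 11, and TTR at most 15.2 CPM against 2186 CPM. Their medians with and without testosterone were 0.461 and 0.329 CPM for FGB, and 0.315 and 0.512 CPM for TTR. Without C 8, C 11 and C 12 the 7 lay between -2.30 and -0.07. Of the extracellular matrix genes COL6A2, COL9A2, EMILIN1, EFEMP2 and LOX, which were also called lower, C 11 was the highest in all 5. Without C 8, C 11 and C 12 these lay between -2.92 and -0.25. The p53 targets POLH, DDB2, PPM1D and GDF15 fell, with log2 differences between -2.31 and -1.51, and were highest in C 12, as were the MAF and AP-1 factors MAFF, MAFK, JUNB and ATF3. Without C 8, C 11 and C 12 the p53 targets lay between -1.13 and -0.23. The MAF and AP-1 factors then lay between -1.49 and -0.17.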
